A study of Mus musculus with 2 samples.

Results

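The 5′ UTR peaks were the open chromatin regions of cultured cardiac fibroblasts that the deposited peak annotation placed in the 5′ untranslated region of a transcript. There were 2599 of them among 63316 peaks (4.10%), chosen by the annotation alone and without use of any read density, and they lay in 2527 genes. Accessibility had been measured by ATAC-seq, in which a transposase cuts and tags open DNA. Both libraries were labelled as primary cardiac fibroblasts isolated from mouse heart and exposed to TGF-β at 5 ng/ml for 24 h, a treatment that turns fibroblasts into contractile, matrix-secreting myofibroblasts. In the SCR library the cells had received scrambled siRNA, and in the siPiezo2 library they had received siRNA against Piezo2, which encodes a mechanically gated cation channel. There was 1 library per condition and so no replicates. No difference given here has a replicate check, and every interval covers counting error only. The design text of the series describes a Cre-mediated Tet3 knockout instead of an siRNA, while the sample titles name siPiezo2, and the titles were followed. The sources also conflict on the input, since the labels name cells but total RNA as the molecule, and the ATAC-seq methods of the study start from minced tissue, which was not settled here. The labels give no age, sex or strain and do not say how many hearts were pooled.

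The 5′ UTR is the stretch of a messenger RNA between the cap and the start codon. Its DNA begins at the transcription start site (TSS), next to the nucleosome-depleted core promoter, where general transcription factors and RNA polymerase II assemble. Many mammalian promoters lie in CpG islands and are open in most cell types. Promoters of genes restricted to certain cell types more often carry a TATA box and sites for inducible factors, such as the CArG box bound by SRF, the site of the TEAD factors and the site of AP-1.

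The class was close to the promoter by position. The midpoints of all 2599 peaks lay downstream of the TSS of the assigned transcript, at a median of 38 bp (quartiles 13.5 and 85 bp), and 2059 (79.2%) were within 100 bp. The peak itself covered the TSS in 2351 cases (90.5%). Promoter peaks within 1 kb, the class next to it, had midpoints nearly all on the other side of the TSS. Their median was -80.5 bp, and 7194 of 9251 (77.8%) covered the TSS. Exon peaks had a median of 1302.5 bp. Peaks were 200 to 1159 bp wide with a median of 392 bp, while the densities were read over 2000 bp. Values at 5′ UTR peaks near the TSS therefore take in the core promoter and cannot be told apart from it. The windows of the 38 peaks beyond 1 kb do not reach the TSS of the assigned transcript. By annotation GENCODE M21, the assigned transcripts had a median 5′ UTR of 236 bases (99.0% of 2593 transcripts matched), against 147 bases over 59958 coding transcripts, and 45.7% of the matched 5′ UTRs were split by an intron, beside 45.8% over those coding transcripts.

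**Figure D1:**
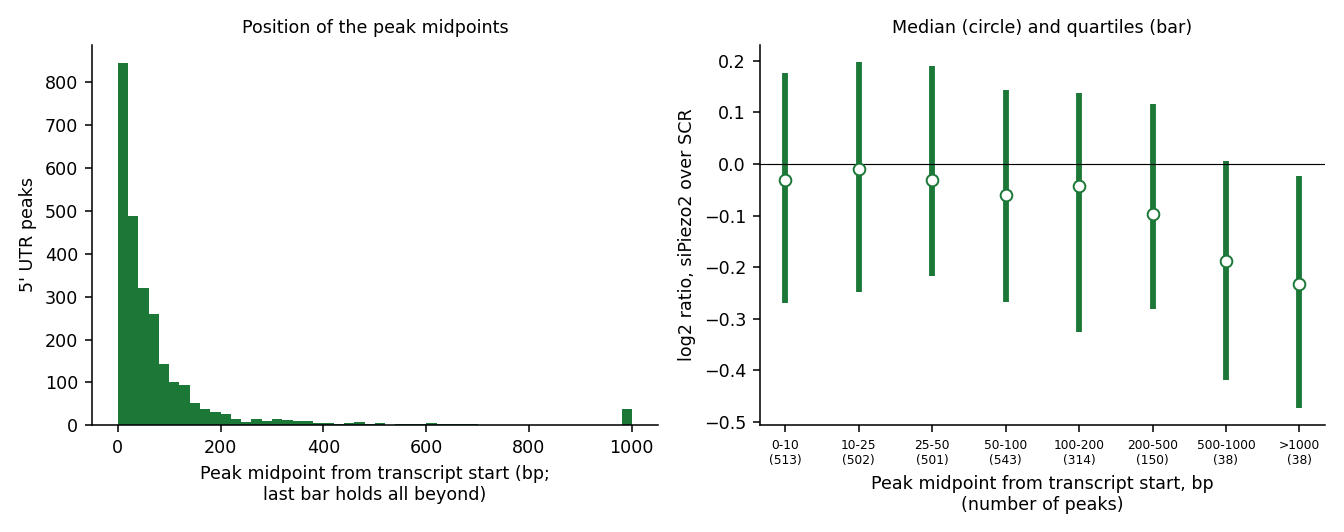
Position and ratio of the 5′ UTR peaks. Left, number of peaks by distance of the peak midpoint from the TSS in bp. Right, log2 ratio of siPiezo2 over SCR by distance, with circles for medians and bars for quartiles. Most peaks sat within 100 bp of the TSS, and the medians went from -0.031 in the nearest group to -0.23 in the 38 peaks beyond 1 kb.

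Short stretches around promoter motifs are shown for 8 genes whose 5′ UTR peaks were lower, higher or little different. They come from RefSeq promoter windows on GRCm38.p6, 250 bases before to 50 after the TSS. Only genes whose RefSeq TSS lay within 100 bp of the TSS of the peak's transcript were used. Each is written 5′ to 3′ on the strand of the gene, with the motif in capitals. A match describes the letters and is no evidence that a factor was bound.
Fhl2, CArG box (CC, a run of A or T, GG) at position -31 from the TSS, chr1:43163973-43164002, minus strand: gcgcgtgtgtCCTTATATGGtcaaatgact
Lima1, CArG box at -47, chr15:99820177-99820206, minus strand: ctcactttgtCCTTATAAGGctatcctgtt
Tnc, TATAAA at -126, chr4:64047124-64047153, minus strand: ttttttcttcacTATAAAttgtatgcaaat
Vim, TATAAA at -32, chr2:13574267-13574296, plus strand: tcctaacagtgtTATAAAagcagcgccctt
Rab34, AP-1 core TGANTCA at -58, chr11:78188358-78188386, plus strand: ggcagactctaTGAGTCAtgtgccaggcc
Cald1, TGANTCA at -197, chr6:34709236-34709264, plus strand: attgatttctcTGAGTCAagcttataaag
Appbp2, TEAD core CATTCC at -60, chr11:85235163-85235192, minus strand: ttccgcctgccgCATTCCttcccgggcgcg
Col3a1, CATTCC at -168, chr1:45311358-45311387, plus strand: tatcacaaagcaCATTCCtatgtgtttctg
Fhl2, Tnc, Rab34 and Appbp2 had 5′ UTR peaks below 0.66 of SCR and Cald1 one above 1.5, while Lima1, Vim and Col3a1 were between. The same motif thus stood in the promoter windows of genes with peaks on both sides. Rab34 and Cald1 share TGAGTCA and had log2 ratios of -0.82 and 0.91. Whether a motif lay inside the peak was not checked.

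Over all 5′ UTR peaks the siPiezo2 library was slightly below the SCR library. The median normalized read density, in reads per 1000 bp after the authors' normalization, was 33.9 in SCR and 32.1 in siPiezo2. The median log2 ratio, log2((siPiezo2 + 1)/(SCR + 1)), was -0.043 with quartiles of -0.27 and 0.16, and 1441 peaks (55.4%) were lower in siPiezo2. The median over all peaks was -0.13, with 63.7% lower. The 5′ UTR median was close to that of promoter peaks within 1 kb (-0.030), whereas exon peaks stood at -0.090, intron peaks at -0.17 and distal intergenic peaks at -0.18. The sign of the small 5′ UTR median rested on scaling. When the libraries were set so that the median of all peaks was 0, which moved every log2 ratio up by 0.14 at most, the 5′ UTR median became 0.092 and 39.2% of its peaks were lower.

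Large differences were less frequent at 5′ UTR peaks than over the table. The siPiezo2 density was below 0.66 of SCR at 161 of 2599 peaks (6.19%), beside 14.9% of all peaks, 6.63% of promoter peaks within 1 kb and 11.01% of exon peaks. It was above 1.5 of SCR at 63 peaks (2.42%), beside 3.62% of all peaks, 2.37% of promoter peaks and 3.84% of exon peaks. With the median of all peaks set to 0, these counts turned to 82 below (3.16%, beside 9.24% of all peaks) and 157 above (6.04%, beside 6.97%), so the balance of lower and higher peaks cannot be read from them. The thresholds cut through a continuous range. Slc2a10, at 0.659 of SCR, was just inside and Wsb1, at 0.661, just outside.

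**Figure D2:**
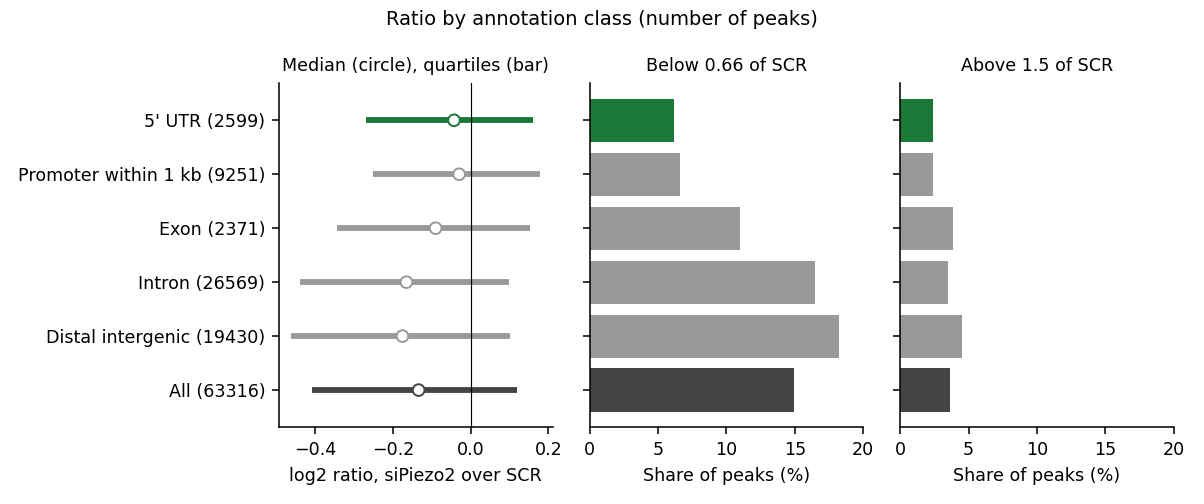
Ratio by annotation class. Left, log2 ratio of siPiezo2 over SCR, with circles for medians and bars for quartiles. Middle and right, percent of peaks below 0.66 and above 1.5 of SCR. The 5′ UTR class lay beside promoter peaks within 1 kb in all 3 panels, at 6.19% below 0.66 against 14.9% of all peaks.

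Read numbers set the precision. Whole reads could be recovered from the densities at 100% of peaks. The windows of the 5′ UTR peaks held 249249 reads in SCR and 151028 in siPiezo2, so that the typical window had 83 and 51 reads, against 58 and 36 over all peaks. The 95% interval of the ratio, from these reads, lay wholly below 0 at 211 peaks (8.12%, beside 13.8% of all peaks) and wholly above 0 at 116 (4.46%, beside 4.03%). Of the 161 peaks below 0.66, 138 had an interval wholly below 0, and of the 63 above 1.5, 53 had one wholly above 0. The siPiezo2 library was the shallower, and 973 of the 5′ UTR peaks (37.4%, beside 64.05% of all peaks) had been called in SCR only and 33 (1.27%, beside 2.16%) in siPiezo2 only. Another 1593 (61.3%) were called in both, a share of 33.8% over all peaks.

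The gap to all peaks changed with peak strength. Among the strongest 25% of all peaks, those with a mean density of 33.0 or more, were 1298 of the 5′ UTR peaks (49.9%). Their median log2 ratio was 0.0072, against -0.065 over all strong peaks, and 39 (3.005%) were below 0.66 against 10.0%. Strong promoter peaks within 1 kb were close to the class, with a median of 0.027 and 3.20% below 0.66. The weakest 25% of all peaks held 157 of the 5′ UTR peaks, with a median of -0.23 and 19.7% below 0.66, close to the -0.22 and 20.6% of all peaks that weak. When recovered reads were compared at equal library totals, with no correction for density, the 5′ UTR median was 0.033 and that of all peaks 0.021. The difference between the 5′ UTR and all-peak medians was then 0.012 in place of 0.091. Among the strongest 25% of peaks it did not close in the same way, with medians on recovered reads of 0.0022 for 5′ UTR peaks and -0.053 for all, nor in the 25% next in strength, with 0.058 and 0.0078. On recovered reads 3.31% of 5′ UTR peaks were below 0.66, against 8.07% of all peaks.

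**Figure D3:**
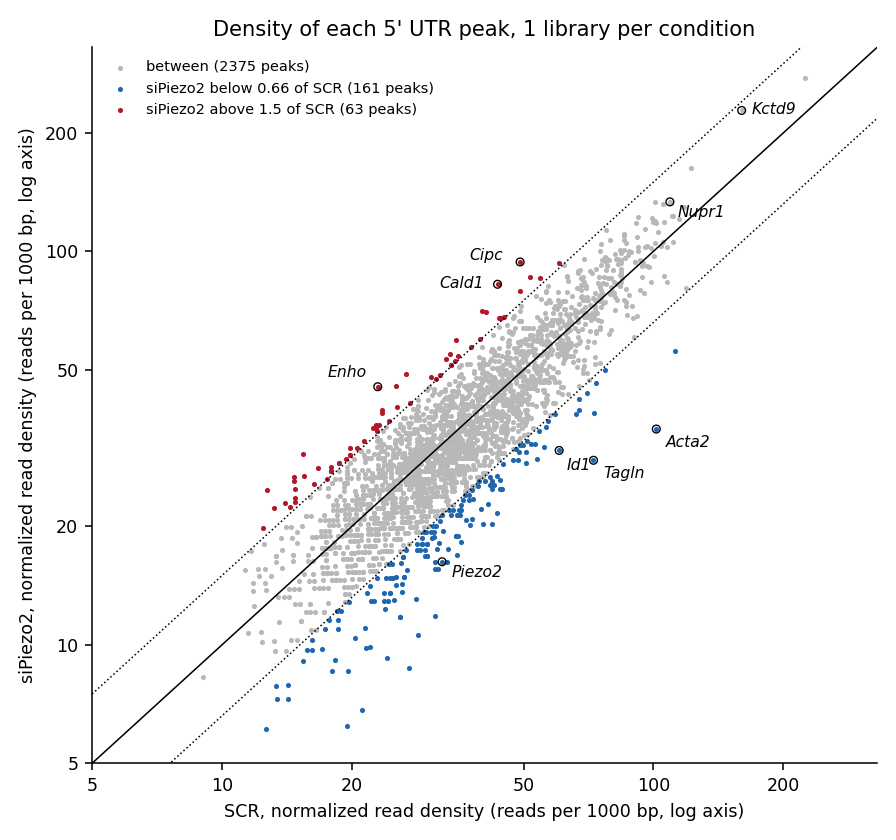
Normalized read density of each 5′ UTR peak in SCR (x axis) and siPiezo2 (y axis), reads per 1000 bp on log axes. The solid line marks equal densities and the dotted lines 0.66 and 1.5 of SCR. Acta2, Tagln and Id1 stood apart below the main cloud among strong peaks, while the 63 peaks above 1.5 stayed near its upper edge.

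Among strong 5′ UTR peaks the lowest ratio was at Acta2, which encodes the smooth muscle α-actin that defines myofibroblasts. Its peak, chr19:34232582-34233210, had a density of 102 in SCR and 35.4 in siPiezo2, from 265 and 53 reads. SCR was thus 2.87 times as high, a log2 ratio of -1.50 (95% interval -1.96 to -1.10). Tagln, an actin-binding protein of contractile cells, followed with 72.6 in SCR and 29.5 in siPiezo2 (chr9:45847048-45847513), or -1.27 (-1.78 to -0.83). Id1, a helix-loop-helix inhibitor that responds to BMP signalling, had 60.5 and 31.2, or -0.93 (-1.44 to -0.49). These 3 peaks had intervals below 0 and kept their direction under each other scaling tried. They were picked from the lowest ratios among strong peaks, and the intervals make no allowance for that choice. In bulk cultures, fewer cells of a state and less accessibility per cell cannot be told apart. Pericytes and smooth muscle cells also express Acta2 and Tagln. Peaks of any class were present at 7 of 11 marker genes of those cells, and their summed density over 26 peaks was 698 in SCR and 564 in siPiezo2. Kcnj8, Mcam, Des and Vtn had no peak. The part of such cells in the Acta2 and Tagln values was not tested.

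Others of the 10 lowest had less specific roles. Fbxl18, an F-box subunit of ubiquitin ligases, had a density of 72.9 in SCR and 38.9 in siPiezo2 (log2 ratio -0.89). Pnisr, a serine and arginine rich nuclear protein, had 53.8 and 29.7 (-0.84). Rab34, a small GTPase of vesicle traffic and cilia, had 44.6 and 24.9 (-0.82). All 3 intervals lay below 0. Appbp2, a substrate receptor of a cullin ligase, went from 44.2 in SCR to 24.9 in siPiezo2 (-0.80), and Ddx39b, an RNA helicase of splicing and mRNA export, from 50.8 to 29.0 (-0.79). Fhl2, a LIM-domain cofactor of SRF, entered with a peak 54966 bp inside the gene at 55.9 in SCR and 31.8 in siPiezo2 (-0.80, interval -1.30 to -0.35). Its second 5′ UTR peak, 53 bp from the TSS that carries the CArG box shown above, had 67.3 and 39.4 (-0.76, interval -1.21 to -0.35). The peaks named here were lower under each scaling tried.

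Of the 10 highest strong peaks the first was at Enho, which encodes the secreted peptide adropin. It had a density of 23.0 in SCR and 45.3 in siPiezo2, from 56 and 72 reads, a ratio of 1.97 and a log2 ratio of 0.95 (0.45 to 1.46). Cipc, a repressor partner of CLOCK in the circadian clock, had 49.1 and 94.0, or 0.92 (0.57 to 1.27). Vapb, an endoplasmic reticulum tether, had 26.7 and 48.9, or 0.85 (0.37 to 1.33). These 3 intervals lay above 0. The peaks were picked as extremes among 1298 strong ones, and the intervals make no allowance for that choice. Atxn10, Pam, Letm1, Ap1g1, Ppp1r7 and Dazap2 had log2 ratios from 0.82 for Atxn10 to 0.69 for Dazap2, and all 10 intervals lay above 0. Pam amidates secreted peptides, Letm1 is a cation carrier of mitochondria, and Ap1g1 is a subunit of a clathrin adaptor. On the authors' scale no 5′ UTR peak reached 2 times SCR, beside 0.622% of all peaks, and 23 were below 0.5 of it (0.885%, beside 3.50%), but this contrast rested on scaling. With the median of all peaks set to 0, the log2 ratios of Enho, Cipc and Cald1 were 1.09, 1.06 and 1.05.

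Cald1 had the 1 peak above 1.5 on the list of actin and contraction genes. It encodes caldesmon, an actin-binding regulator of contraction, and its 5′ UTR peak at chr6:34686254-34686611 had a density of 43.5 in SCR and 82.5 in siPiezo2, or 0.91 (0.54 to 1.28). The peak sat 7.5 bp from an internal TSS of the gene. The promoter peak of the upstream TSS had 113 in SCR and 82.6 in siPiezo2, or -0.45 (-0.77 to -0.15). The 2 start regions of Cald1 thus differed in opposite directions. Of its 18 other peaks 13 were lower in siPiezo2, beside 63.7% of all peaks and 66.2% of intron peaks. A promoter peak next to the internal TSS, whose window overlaps that of the 5′ UTR peak, had 42.5 and 80.4.

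**Figure D4:**
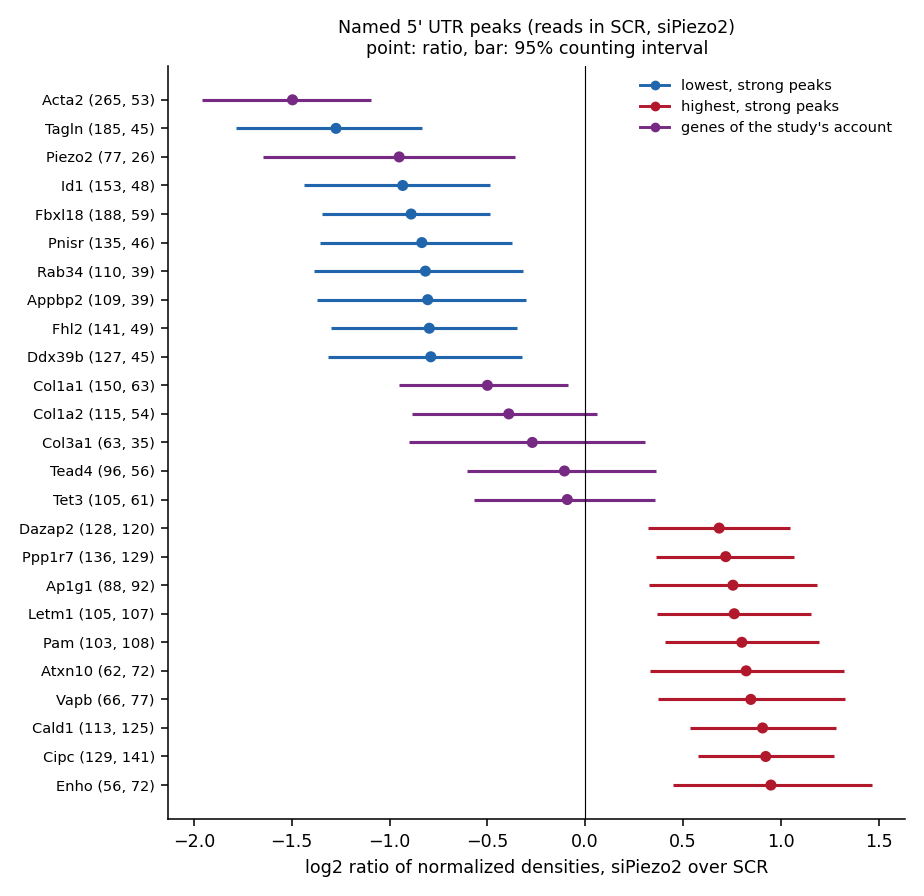
Log2 ratio of siPiezo2 over SCR at named 5′ UTR peaks, with reads in SCR and siPiezo2 beside each gene. Points are ratios of normalized densities and bars 95% counting intervals. Intervals of the lowest and highest strong peaks shown did not reach 0, while those of Col1a2, Col3a1, Tead4 and Tet3 did. The lowest and highest peaks were picked by their ratios, for which the intervals make no allowance.

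Of 21 genes central to the study, 7 had a 5′ UTR peak. Piezo2 itself, the target of the siRNA, had a density of 32.4 in SCR and 16.3 in siPiezo2, from 77 and 26 reads, or -0.95 (-1.65 to -0.36). Accessibility does not measure messenger RNA, so this value is no check of the knockdown. Col1a1, the main fibrillar collagen chain, had 58.7 and 41.2, or -0.50 (-0.95 to -0.087). Col1a2 had 45.9 in SCR and 34.8 in siPiezo2 (-0.39) and Col3a1 had 26.5 and 21.8 (-0.27), and both intervals included 0. Tet3, a dioxygenase that oxidizes 5-methylcytosine, had 41.9 and 39.2 (-0.091), and Tead4, a DNA-binding partner of YAP and TAZ, 38.6 and 35.8 (-0.11). Both values were within counting error and turned to 0.045 and 0.030 with the median of all peaks set to 0.

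Genes of the extracellular matrix and myofibroblast state had a median below that of the class. Of 47 genes counted, 18 had a 5′ UTR peak, with a median log2 ratio of -0.23 beside -0.043 over all 5′ UTR peaks, and 14 of the 18 were lower, 5 of them with an interval wholly below 0, beside 8.12% of the class and 13.8% of all peaks. The intervals of Col1a1 and Col8a1 ended at -0.087 and -0.094, closer to 0 than the shift of 0.14 between scalings. With the median of all peaks set to 0 the list median was -0.090, beside 0.092 for the class, and 11 were lower. Acta2, Tnc and Col5a2 were below 0.66 (16.7%, beside 6.19% of 5′ UTR peaks and 14.9% of all peaks) and none was above 1.5. Tnc, the matrix glycoprotein tenascin C of injured tissue, had a density of 42.3 in SCR and 20.3 in siPiezo2, or -1.02 (-1.64 to -0.49). Col5a2, a chain of the collagen that nucleates fibrils, had 53.2 and 32.3, or -0.70 (-1.20 to -0.25). Col8a1, a short-chain collagen, had 61.5 and 43.3, or -0.50 (-0.94 to -0.094). Other members did not follow. Loxl1, an enzyme that crosslinks elastin, had 74.8 and 86.0 (0.20), Timp2, an inhibitor of metalloproteinases, 29.8 and 35.4 (0.24), and Col6a2 34.2 and 41.5 (0.27), each with an interval that included 0.

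Actin and contraction genes split between strongly lower and little changed peaks. The list of 48 genes gave 16 peaks in 15 genes with a median of -0.20, of which 6 were below 0.66 (37.5%, beside 6.19% of the class and 14.9% of all peaks), 1 was above 1.5 (6.25%, beside 2.42% and 3.62%) and 9 were between. With the median of all peaks set to 0 the median was -0.061, and 10 peaks in place of 13 were lower. Beside Acta2, Tagln and the pair at Fhl2 these were the tropomyosins, which wrap actin filaments. Tpm2 had a density of 35.9 in SCR and 22.1 in siPiezo2, or -0.68 (-1.28 to -0.14), and Tpm1 had 67.1 and 42.1, or -0.66 (-1.10 to -0.26). Rhoa, the GTPase that drives stress fibres, had 60.5 and 54.8 (-0.14) and Tpm3 59.8 and 54.8 (-0.12), both within counting error. Pdlim5, a scaffold of stress fibres, had 79.8 and 85.5 (0.098). Lima1, whose promoter holds a CArG box, had 38.0 and 31.9, or -0.25 (-0.77 to 0.23).

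Targets of SRF, the factor through which actin dynamics reach transcription, overlapped with that list. Of 43 listed genes, 10 had 12 peaks with a median of -0.54, the lowest of all lists, and 6 of the 12 were below 0.66, beside 6.19% of the class and 14.9% of all peaks. The median was -0.41 with the median of all peaks set to 0. All 6 were those of Acta2, Tagln, Fhl2, Tpm2 and Tpm1 already given, so the list adds no independent peak below the threshold. Ier2, an immediate early gene, had a density of 55.7 in SCR and 41.1 in siPiezo2, or -0.43 (-0.88 to -0.013). That interval ended closer to 0 than the shift of 0.14 between scalings. The immediate early gene Egr1 had 97.6 and 91.3 at one peak and 105 and 106 at the other, near equality at both. Cald1 was the 1 member above 1.5 (8.33%, beside 2.42% of the class and 3.62% of all peaks).

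**Figure D5:**
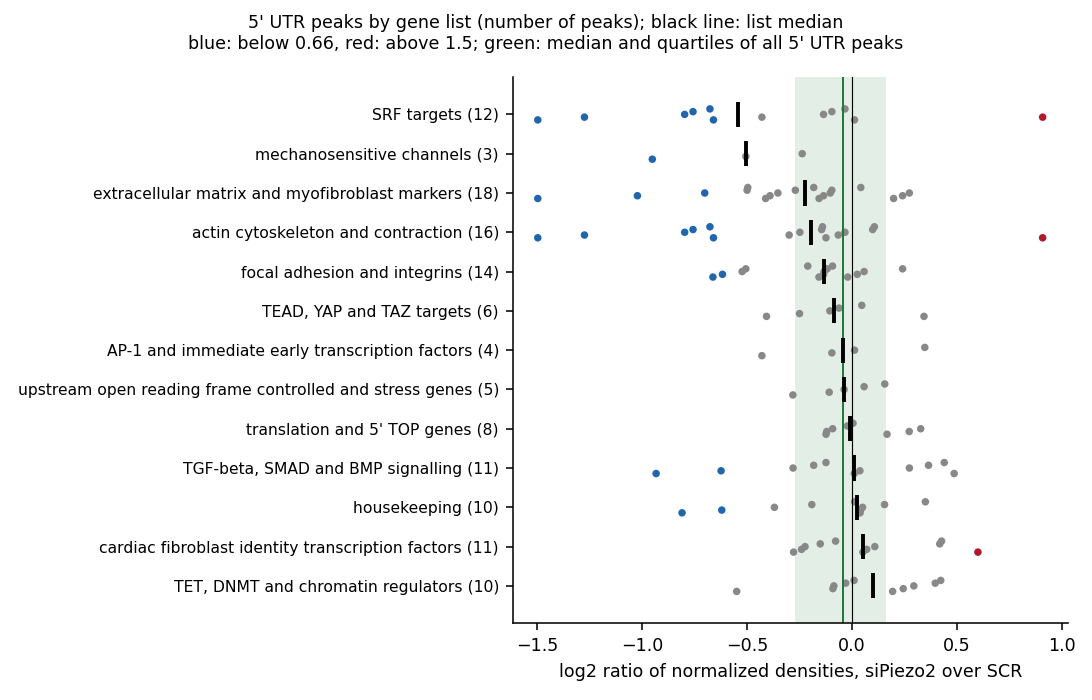
Log2 ratio of siPiezo2 over SCR at 5′ UTR peaks of each gene list, 1 point per peak, with a black line at the list median. The green line and band are the median and quartiles of all 5′ UTR peaks. Median values ranged from -0.54 for SRF targets to 0.10 for TET, DNMT and chromatin regulators.

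Focal adhesion and integrin genes had 14 peaks with a median of -0.13. Of these 2 were below 0.66 (14.3%), a share near the 14.9% of all peaks and above the 6.19% of the class. Itga1, the α1 collagen receptor chain, had a density of 47.3 in SCR and 29.5 in siPiezo2, or -0.66 (-1.19 to -0.19), and Itga4 had 44.7 and 28.8, or -0.62 (-1.15 to -0.14). Cavin1, a coat protein of caveolae, had 70.0 and 49.0, or -0.51 (-0.92 to -0.13). These were the 3 of 14 peaks with an interval below 0, beside 8.12% of the class and 13.8% of all peaks. The intervals of Itga4 and Cavin1 ended at -0.14 and -0.13, near the shift of 0.14 between scalings. Itgb8, an integrin chain, had 43.2 and 43.9 (0.025), Vasp, an actin regulator at adhesions, 40.1 and 35.9 (-0.16), and Ptk2, the focal adhesion kinase, 29.8 and 35.4 (0.24), each with an interval that included 0. With the median of all peaks set to 0 the list median was 0.00086. Of 14 mechanosensitive channel genes 3 had a peak, Piezo2, Trpc1 with 29.7 and 20.6 (-0.51) and Trpm7 with 40.9 and 34.6 (-0.24), the latter pair with intervals that included 0.

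TGF-β and BMP pathway genes showed no common direction. Their 11 peaks had a median of 0.011, with 2 below 0.66 (18.2%, beside 6.19% of the class and 14.9% of all peaks). The receptor Bmpr2 had a density of 41.8 in SCR and 26.8 in siPiezo2, or -0.62 (-1.18 to -0.13). That interval ended closer to 0 than the shift of 0.14 between scalings. The receptor Tgfbr2 had 43.8 and 56.7 (0.36) with an interval that included 0, and the ligand Tgfb1 had 33.9 and 29.7 (-0.18). Tgif1, a corepressor of SMAD proteins, had 56.3 and 79.3, or 0.49 (0.13 to 0.84). Id3, the relative of Id1, had 94.0 and 86.1 (-0.12), beside -0.93 at Id1.

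Transcription factor genes of fibroblast identity had 11 peaks with a median of 0.052. None was below 0.66, a count too small to be set against the 6.19% of the class. Gata4, a zinc-finger factor of heart development, was the 1 peak above 1.5 (9.09%, beside 2.42% of the class and 3.62% of all peaks). It had a density of 44.3 in SCR and 67.6 in siPiezo2, or 0.60 (0.21 to 0.99). Gata6, its relative, had 90.5 and 93.8 at one peak (0.052). Runx1, a factor of activated fibroblasts, had 73.7 and 62.2 (-0.24). On recovered reads at equal totals this list's median was -0.045. Targets of TEAD, YAP and TAZ had 6 peaks, none past either threshold, and a median of -0.084 that turned to 0.052 with the median of all peaks set to 0. Amotl2 had 90.8 and 93.8 (0.046) and Vgll4 41.9 and 31.3 at its lower peak (-0.41).

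Lists chosen for control by the 5′ UTR itself were near the class median. Genes with 5′ terminal oligopyrimidine tracts and other translation genes had 8 peaks with a median of -0.0087, none past either threshold, from Eif4b with a density of 45.2 in SCR and 41.4 in siPiezo2 (-0.12) to Tpt1 with 68.0 and 85.6 (0.33). Genes controlled by upstream open reading frames and stress had 5 peaks with a median of -0.038, among them Xbp1 with 56.8 and 55.3 and Ppp1r15a with 83.7 and 87.1. The AP-1 and immediate early list had 4 peaks, and its highest was Mafk with 85.7 and 109, or 0.35 (0.047 to 0.64). The medians of these 3 lists changed sign with scaling, to 0.13, 0.099 and 0.096 with the median of all peaks set to 0.

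Chromatin regulators had 10 peaks with a median of 0.10, none past either threshold. Brd2, a bromodomain protein that reads acetylated histones, had a density of 101 in SCR and 133 in siPiezo2, or 0.40 (0.12 to 0.66). Hdac5, a histone deacetylase, had 52.6 and 35.6, or -0.55 (-1.03 to -0.11), at a peak 5320 bp from its TSS. That interval ended closer to 0 than the shift of 0.14 between scalings. The maintenance methyltransferase Dnmt1 had 38.8 and 39.1 (0.010). Housekeeping genes had 10 peaks with a median of 0.025. It was 0.16 with the median of all peaks set to 0 and -0.030 on recovered reads at equal totals. Of these peaks 2 were below 0.66 (20%, beside 6.19% of the class and 14.9% of all peaks). They were Hprt, with 24.6 and 13.6 from 57 and 22 reads (-0.81), and Eno1, with 77.3 and 49.9 (-0.62). Both intervals lay below 0. Hspa8 had 91.9 and 102 (0.15).

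The 5 strongest 5′ UTR peaks were all higher in siPiezo2 on the authors' scale. The strongest belonged to ENSMUSG00000095041, on an unplaced scaffold, with densities of 225 in SCR and 276 in siPiezo2 (0.30). Kctd9, a BTB-domain protein, had 160.2 and 228 (0.51), Opa3, a mitochondrial protein, 122 and 163 (0.41), Ogg1, the DNA glycosylase that removes 8-oxoguanine, 118 and 129.7 (0.14), and Nupr1, a stress-induced chromatin protein, 109 and 134 (0.29). The interval of Ogg1 included 0 and the other 4 lay above it. On recovered reads at equal totals all were lower than on the authors' scale. The values were -0.095 for ENSMUSG00000095041, 0.18 for Kctd9, 0.16 for Opa3, -0.081 for Ogg1 and 0.079 for Nupr1.

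Median ratios were lower in the groups of peaks farthest from the TSS. The median was between -0.060 and -0.011 in the 4 groups within 100 bp, -0.042 from 100 to 200 bp (314 peaks), -0.097 from 200 to 500 bp (150 peaks), -0.19 from 500 to 1000 bp (38 peaks) and -0.23 beyond 1 kb (38 peaks, of which 29 were lower). The share below 0.66 did not follow distance evenly. It was 4.48% to 6.81% in the groups within 100 bp, 8.92% from 100 to 200 bp, 3.33% from 200 to 500 bp, 13.2% (5 peaks) from 500 to 1000 bp and 15.8% (6 peaks) beyond 1 kb, the last near the 14.9% of all peaks. The matched transcripts of these far peaks had a median 5′ UTR of 595 bases, and 75.7% of them were split by an intron. Beside Fhl2, Htr1d, with 66.2 in SCR and 38.7 in siPiezo2 (-0.76, interval -1.22 to -0.35), and Nt5c2, with 26.2 and 13.6 (-0.89), were low there, whereas Rap2b had 110.3 and 123 (0.15). Htr1d, Nt5c2 and Rap2b were picked after their values were seen. The median density of far peaks, 30.05 in SCR, was lower than the 33.9 of the others, and its part in the difference was not tested.

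In 66 genes there was more than 1 peak of the class. All peaks were lower in 27 genes, all higher in 13, and 26 were split, or 20, 24 and 22 with the median of all peaks set to 0. In 29 of the genes peaks lay within 2000 bp of each other and shared reads. In the other 37 genes 11 were lower, 5 higher and 21 split. Among the split genes, Coq2, Pde4b and Zbtb20 had peaks whose intervals did not overlap each other. The widest split was at Pde4b, a cAMP phosphodiesterase with many start sites, also picked after its values were seen. Its peak at chr4:102112143-102112343 had a density of 27.1 in SCR and 8.73 in siPiezo2, or -1.53 (-2.44 to -0.81), the lowest log2 ratio of the class. Another start 315260 bp away had 39.7 and 59.8, or 0.58 (0.16 to 0.99). Zbtb20, a zinc-finger repressor, had 5 peaks, with a lowest of 21.1 in SCR and 6.83 in siPiezo2 (-1.49, interval -2.51 to -0.70) and a highest of 42.4 and 44.6 (0.071). Calcrl, the receptor chain of adrenomedullin, had 19.5 and 6.22 (-1.50, interval -2.56 to -0.68), from 43 and 10 reads.

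At Acta2 another peak was lower still than the one in the 5′ UTR. This only other peak of the gene, downstream of it, had a density of 63.3 in SCR and 7.81 in siPiezo2, or -2.87 (-3.80 to -2.19). At Tagln the other peak had 49.8 and 32.2 (-0.61), and at Id1 it had 60.7 and 58.2 (-0.060), both above the 5′ UTR peak although the read windows of each pair overlapped. Other peaks of the same genes, with windows that did not overlap, were summarised by their median for each 5′ UTR peak. These medians centred on -0.19 where the 5′ UTR peak was below 0.66 (16.6% of 482 other peaks were below 0.66), on -0.16 where it was between (16.03% of 4324) and on -0.017 where it was above 1.5 (13.9% of 165). The share of low peaks elsewhere in the gene was thus alike in the first 2 groups, which were formed by the ratio of the 5′ UTR peak itself.

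Promoter windows of the genes with a 5′ UTR peak were richer in CpG than promoters at large. RefSeq windows of 300 bases were matched by symbol for 2055 of the 2561 peaks within 1 kb of their TSS (80.2%), in 1996 genes. Of these windows 1468 had their TSS within 100 bp of the start of the peak's transcript, and the others lay farther off or could not be placed. Their median GC content was 60.0% against 52.7% over 32851 windows, and the observed over expected CpG ratio was 0.74 against 0.38. TATAAA on either strand stood in 6.76% of them against 13.6% of all windows, CATTCC in 13.6% against 14.7%, TGANTCA in 5.06% against 7.81%, the CArG box in 1.20% against 1.63%, and CCGGAAG, the core site of ETS factors, in 19.2% against 8.86%. Across the 2055 matched peaks, the median log2 ratio was -0.12 in the 25% poorest in CpG and -0.040, -0.029 and 0.042 in the 3 richer groups. Over the 1468 windows at the peak's own start, fewer than 80% of the peaks, the medians in these groups were -0.11, -0.044, -0.022 and 0.050. Median mean densities of the 4 groups of matched peaks were 30.4, 34.5, 35.4 and 34.0, and their part was not tested. Among the motifs the medians lay farthest apart for CATTCC. The medians with and without the motif were -0.070 and -0.038 for TATAAA, -0.12 and -0.028 for CATTCC, -0.044 and -0.038 for TGANTCA, -0.012 and -0.040 for the CArG box (26 peaks with it), and -0.017 and -0.044 for CCGGAAG. For the CArG box the order turned over the windows at the peak's own start, to -0.055 with it (20 peaks) and -0.036 without. For each other motif the order held there, for CATTCC at -0.098 with it (203 peaks) and -0.030 without. Peaks below 0.66 were matched at 79.4%, so their share by sequence is not given.

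The cell label was checked against marker genes. Of 16 fibroblast markers 14 had a peak at the promoter or 5′ UTR, and 8 had a 5′ UTR peak, including Col1a1, Pdgfra, Pdgfrb, Ddr2 and Vim. Cardiomyocyte markers had such a peak at 3 of 16 genes, endothelial at 2 of 14, macrophage at 0 of 14, pericyte and smooth muscle at 4 of 11, and epicardial at 4 of 10. Among these other types only the endothelial gene Esam had a 5′ UTR peak, with a density of 29.9 in SCR and 31.5 in siPiezo2 (0.071). Fibroblast markers had a median of -0.33 over 8 peaks, or -0.20 with the median of all peaks set to 0. Dpep1 had 41.3 and 22.9 (-0.83), Pdgfrb 75.3 and 51.9 (-0.53), Vim 94.1 and 91.8 (-0.034) and Pdgfra 40.9 and 44.5 (0.12).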

How the data were processed

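The authors trimmed adapters, aligned reads with BWA (0.7.12 per the labels), removed duplicates with Picard and called peaks with MACS2. The labels name mm10, yet only 2.05% of 21060 transcripts in the table share both ends with the GRCm38 annotation, so no sequence was read at table positions. The deposited signal columns are read densities per peak and library, normalized by the authors. The other columns of the table hold the authors' own ratios and p-values, which were not used. Densities became whole reads per 2000 bp, within 0.05 of a whole number, once a linear fit of log2 ratio on mean log2 density was undone. The recovered reads totalled 4615335 in SCR and 2754046 in siPiezo2, and 357 windows of 5′ UTR peaks overlapped the window before. Log2 ratios used a pseudocount of 1, which understates changes of low peaks. Thresholds of 0.66 and 1.5 were applied to the plain ratio. Exact binomial (Clopper-Pearson) intervals came from the recovered reads, and PCR copies that escaped removal would make them too narrow. With 1 library per condition no test was made. Genes named were those central to the study, the 10 lowest and 10 highest log2 ratios among peaks in the strongest 25%, the 5 strongest, and up to 4 listed members with most reads. Results for 1 gene are not reported here, and it was left out of the gene lists and of the plot of named peaks. Further members were named after their values were seen. The members and gene lists were chosen with earlier results of these data known. Read recovery and intervals were tested on simulated data. Computation ran under Python 3.11.15 with scipy 1.17.1, pandas 2.3.3, numpy 2.4.6 and, for the plots, matplotlib 3.10.9.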

Additional observations from a re-analysis of the deposited data

How the results depend on the processing

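The median log2 ratio over 5′ UTR peaks, -0.043, changed sign under 5 settings. It was 0.092 with median-of-ratios scaling, 0.043 with the same total density in both libraries, 0.0072 over the strongest 25% of peaks, 0.024 over peaks called in both libraries, and 0.033 on recovered reads at the same total. The 161 peaks below 0.66 became 82, 104, 39, 37 and 86 under these settings in the same order, and 23 at a threshold of 2-fold. These were 3.16%, 4.002%, 3.005%, 2.32%, 3.31% and 0.885% of the 5′ UTR peaks in each setting, beside 9.24%, 11.1%, 10.04%, 5.90%, 8.07% and 3.50% of all peaks, as the strong peaks numbered 1298 and those called in both 1593. The 63 peaks above 1.5 became 157, 115, 27, 45 and 146, and 0 at 2-fold. These were 6.04%, 4.42%, 2.08%, 2.82%, 5.62% and 0%, beside 6.97%, 5.48%, 3.10%, 4.98%, 8.73% and 0.622% of all peaks. The 0.091 by which the 5′ UTR median exceeded that of all peaks fell to 0.072 over strong peaks, 0.021 over peaks called in both, 0.012 on recovered reads and 0.00069 within 1 kb of a TSS, where most other peaks are promoter peaks. The settings on recovered reads, on peaks whose windows do not overlap and with a pseudocount in the threshold were chosen after seeing the data. Chromosomes 1 to 19, 1 peak per gene and separate windows moved none of these results beyond the limits used, nor did a pseudocount of 0.1 move the median or its difference from all peaks, for which alone it was run. No paired analysis was possible because each condition had 1 library. Depth limits single peaks: 12.6% of the intervals lay wholly on 1 side of 0, and how much of that is variation between libraries beyond counting cannot be told without replicates.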
